A study of Arabis alpina with 2 samples.

Results

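The sites described here were single-base variants of Arabis alpina that 2 genomic libraries both carried on close to 0.5 of their reads. Arabis alpina is a perennial relative of Arabidopsis. The eop055BC1F2 library was a pool of plants from a backcross family, and the pep1-1 library was the progenitor, the line that had been mutagenised to give the eop mutants. PEP1 is a floral repressor, and pep1-1 plants flower without the prolonged cold that Pajares needs. Both were flower-bud DNA of the Pajares accession, grown in long days, and plants of both carried the pep1-1 background. For the pool, eop plants had been selfed, crossed back to pep1-1 and selfed once more, and plants showing the mutant phenotype were taken. Each group had 1 library, the labels do not say how many plants went into it, and there is no replicate check on any value below.

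A site was a member, also called a half-frequency site, if both libraries listed the same base at the same position on chromosomes 1 to 8. Its allele frequency, the share of reads with the variant base, had to lie from 0.4 to 0.6 in both, and its coverage, the number of reads at the site, from 10 to 200 in both. This gave 3434 of the 8457 shared chromosome sites, or 40.6% (95% Wilson interval 39.6 to 41.7%), out of 19199 variants listed in either library. Of the 7327 shared sites within the coverage limits, members were 46.9% (45.7 to 48.0%). Another 107 shared sites met the frequency limits only: coverage exceeded 200 in either library at 99 and was under 10 at 8. Frequency and coverage chose the members, so those values are described without a test. Intervals cover counting error only, and sites close together share reads.

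In a plant that breeds by selfing, most positions become homozygous, so a variant is usually on all reads or on none. Reads from a pair of similar sequences can also be placed on a single position, when an assembly holds only one of the copies. Bases that differ between the copies then appear as variants on part of the reads, at a raised depth and close together. Alkylating mutagens mainly give C-to-T and G-to-A changes, while differences between old copies of a sequence are of all types, with transitions (changes within purines or within pyrimidines) the more common.

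Members were read about 2 times as deeply as fixed sites. Fixed sites, the comparison used throughout, were the 770 shared chromosome sites at 0.9 or more in both libraries and within the same coverage limits. Of these, 600 lay on chromosomes 2 and 8, so their medians rest mainly on those chromosomes. In the pool the median coverage was 126 reads at members (interquartile range 114 to 136), against 61 reads at fixed sites (52 to 70). In the progenitor it was 129 reads at members (110 to 145), against 60 reads at fixed sites (45 to 71). All 7327 shared sites within the coverage limits, members included, had a median of 116 reads in the pool and 112 in pep1-1, closer to members than to fixed sites. The ratio of the medians of members and fixed sites was 2.07 in the pool (1.98 to 2.07 from the intervals of the medians) and 2.15 in pep1-1 (2.06 to 2.20). These intervals treat members as independent, which members close together are not, so their position against 2 is not read as a result. With 1 site kept from each run joined by gaps of at most 500 bp, the ratio was 1.94 in the pool and 1.95 in pep1-1.

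**Figure D1:**
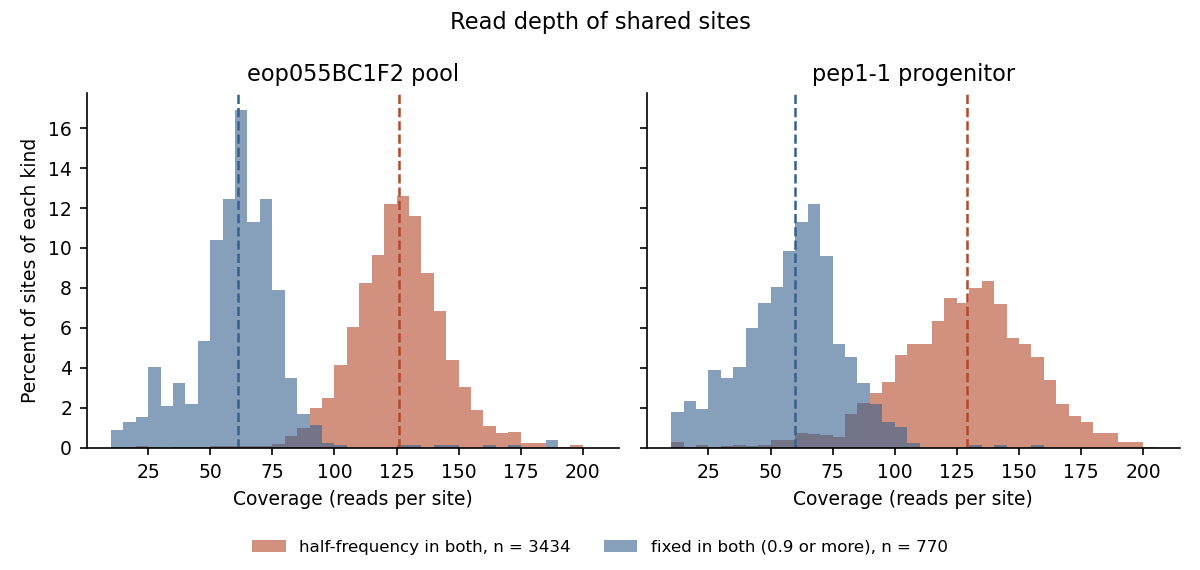
Histograms of coverage in reads per site, in the eop055BC1F2 pool (left) and the pep1-1 progenitor (right), as the percent of the 3434 half-frequency sites and of the 770 fixed sites in bins of 5 reads; dashed lines mark medians. The half-frequency sites centre on 126 reads in the pool and 129 in pep1-1, and the fixed sites on 61 reads in the pool and 60 in pep1-1, with little overlap between them.

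Few members had the depth of a fixed site. Coverage lay from 1.5 to 2.5 times the fixed median at 90.2% of members in the pool (89.1 to 91.1%), against 1.43% of fixed sites (0.7995 to 2.54%). In the progenitor this held for 72.4% of members (70.9 to 73.9%), against 5.06% of fixed sites (3.73 to 6.85%). The SD of coverage over members was 18.99 reads in the pool and 28.02 reads in pep1-1. Only 28 members, 0.815% (0.565 to 1.18%), had up to 80 reads in both libraries, against 636 of the fixed sites, or 82.6% (79.8 to 85.1%).

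These 28 thinly covered members lay on all 8 chromosomes, and 14 of them had no other member within 500 bp. They had a median of 51.5 reads in the pool (range 13 to 79) and 52.5 reads in pep1-1 (range 10 to 80). Their changes were mixed: 6 were C-to-T or G-to-A, and 9 were G-to-T or C-to-A. The rule bounds their frequencies, and the following examples were picked with their values in view. C24376067T on chromosome 2 was on 30 of 51 reads in the pool and 36 of 66 reads in pep1-1. It lay inside a run of 28 members with gaps of at most 500 bp. The median coverage of that run was 112 reads in the pool and 106.5 in pep1-1. C4355018T on chromosome 4 was on 33 of 60 pool reads and 22 of 38 progenitor reads, and its neighbour T4355056A on 32 of 60 pool reads and 19 of 35 progenitor reads. G22855890A on chromosome 8, a change of the mutagen type, was on 37 of 79 pool reads and 35 of 80 progenitor reads. Its coverage was thus at the limit of 80, and it lay inside a run of 8 members. The median coverage of that run was 93.5 reads in the pool and 85.5 in pep1-1.

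Within the limits, frequencies sat slightly under 0.5 in both libraries. In the pool their median was 0.485 (quartiles 0.451 and 0.522), and in pep1-1 0.488 (quartiles 0.448 and 0.526). Summed over members, the variant base was on 48.9% of 430089 reads in the pool and on 48.9% of 436046 reads in pep1-1. More than 0.5 was reached by 38.4% of members in the pool (36.8 to 40.1%) and by 40.0% in pep1-1 (38.4 to 41.6%). The SD over members was 0.0468 in the pool and 0.0498 in pep1-1. Counting alone would give 0.0445 and 0.0440 for a frequency of 0.5 at the median coverages, although the limits of the rule hold the observed spread down. The interval of a single member reached a median of 0.0857 to each side in the pool and 0.0846 in pep1-1.

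The deepest members nearest to an even split included 3 from a single stretch of chromosome 5. Over all members, 75 were within 0.01 of 0.5 in both libraries. C27817327T was on 69 of 137 reads in the pool and 94 of 190 reads in pep1-1. G27814507T was on 64 of 127 reads in the pool and 94 of 185 in pep1-1, and C27816277T on 62 of 126 in the pool and 90 of 178 in pep1-1. Elsewhere, T19435415C on chromosome 5 was on 67 of 133 pool reads and 87 of 177 progenitor reads. C30590625T on chromosome 2 was on 66 of 131 pool reads and 86 of 172 progenitor reads.

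Sites on either side of the limits had close values. Exactly 0.4 in one or the other library was found at 42 members, and exactly 0.6 at 15. Just inside the lower limit was C3919894G on chromosome 1, at 0.418 in the pool and 0.4 in pep1-1. T6275158C on chromosome 1 stood at 0.4 in the pool and 0.5 in pep1-1. Just outside it were T1442989C and T7485681C on chromosome 1, both at 0.399 in pep1-1, with 0.534 and 0.439 in the pool. Just inside the upper limit were G10582270A on chromosome 1, at 0.491 in the pool and 0.6 in pep1-1, and T13987286C on chromosome 2, at 0.6 in the pool and 0.493 in pep1-1. Just outside were A29243741G on chromosome 1, at 0.601 in the pool and 0.525 in pep1-1, and A32000694C on chromosome 8, at 0.546 in the pool and 0.601 in pep1-1.

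Differences between the libraries at a member were small, as the rule requires. A two-sided Fisher's exact test of the read counts was adjusted by Benjamini-Hochberg over all 9753 shared sites. At 0.05 it called 1 of 3434 members, or 0.0291%, against 3.21% of all shared sites and 1.21% of the 7327 chromosome sites within the coverage limits. Since the rule used these frequencies, nothing is read from that count, and the test compares these libraries and not the genotypes at large. The called member was T8045104A on chromosome 5, on 74 of 125 reads in the pool and 68 of 170 in pep1-1 (adjusted p = 0.0451, Fisher's exact test). At an unadjusted p under 0.05 there were 134 members, or 3.90%, against 11.6% of all shared sites. The median difference, pool minus progenitor, was -0.0006 (interquartile range -0.0439 to 0.0412), and the median absolute difference was 0.0429.

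Across the 3434 members, which are not independent replicates and share libraries, the frequencies in the pool and in pep1-1 were weakly related (Pearson r = 0.141, Spearman rho = 0.137). For coverage the values were 0.272 and 0.216. They are descriptions over a range that the rule cut short.

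Members lay in short, dense stretches, while fixed sites were scattered. Another member lay within 100 bp of 84.3% of members (83.1 to 85.5%) and within 500 bp of 94.0% (93.2 to 94.8%). Among fixed sites, another fixed site lay within 100 bp of 14.3% (11.99 to 16.9%) and within 500 bp of 17.01% (14.5 to 19.8%). The median gap between neighbouring members was 38 bp (interquartile range 13 to 146 bp), against 89111 bp between neighbouring fixed sites (26520 to 216777 bp). Of 3426 gaps between members, 724 were at most 10 bp, and 122 joined adjacent bases. Members outnumber fixed sites, which by itself shortens gaps. With frequency limits of 0.35 to 0.65, 94.9% of 4661 sites lay within 500 bp of another. Those 4661 sites include the members, so the closeness of the added sites alone was not measured.

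**Figure D2:**
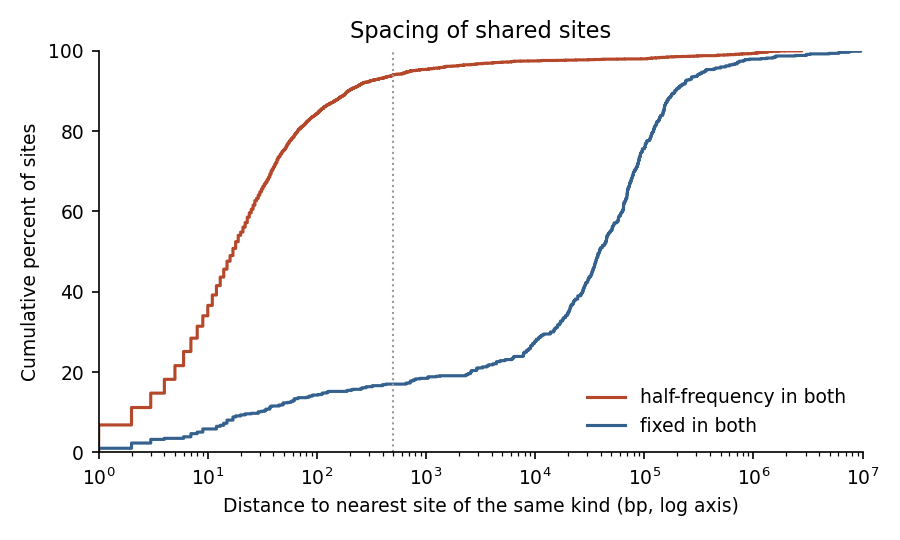
Cumulative percent of sites against the distance to the nearest site of the same kind (bp, log axis), for the half-frequency and the fixed sites; the dotted line marks 500 bp. By 500 bp the curve of the half-frequency sites has reached 94.0%, while that of the fixed sites stands at 17.01%.

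Joining members with gaps of at most 500 bp gave 548 stretches, of which 205 held a single member. Stretches of 5 or more members numbered 169 and held 2768 members, or 80.6% (79.2 to 81.9%), in 143971 bp in all. Fixed sites joined in the same way gave 679 groups, and 7.27% of fixed sites (5.64 to 9.33%) lay in groups of 5 or more, the largest of 11. The 41 stretches of 20 or more members held 1654 members, or 48.2%. Depth changed little with the size of the stretch. Lone members were read a median of 121 times in the pool and 122 times in pep1-1, and members of stretches of 20 or more had 127 and 135 reads. Lone members had lower variant quality, the Phred-scaled score of the call, with a median of 72.5 in the pool and 62.5 in pep1-1, against 151 and 154 in stretches of 20 or more.

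Across the 79 stretches of 10 or more members, density ranged more widely than depth, which the rule bounds. They held 2161 members over 105399 bp. Their span had a median of 1001 bp (range 181 to 5696 bp), and they held a median of 24.9 members per kb (range 5.19 to 57.7). The median coverage of a stretch ran from 94 to 148.5 reads in the pool and from 89 to 167 in pep1-1. The median frequency of a stretch ran from 0.436 to 0.565 in the pool and from 0.418 to 0.549 in pep1-1. At 56 of the 79 the median coverages of both libraries were within 20% of each other.

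The largest difference in depth between libraries, within these 79, was on chromosome 4. The stretch of 16 members from 3363189 to 3364953 had a median of 142.5 reads in the pool and 89 in pep1-1, a log2 ratio of 0.68. In the other direction, 11 members from 29626935 to 29627183 on chromosome 4 had 103 reads in the pool and 153 in pep1-1, a log2 ratio of -0.57. Frequencies, which the rule bounds, had medians of 0.481 in the pool and 0.489 in pep1-1 in the first, and of 0.5 in the pool and 0.507 in pep1-1 in the second. Both were named after their values were seen.

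The largest stretch lay on chromosome 5, from 27811817 to 27817512, and held 140 members in 5696 bp. Positions count from 1 on the assembly the authors used, for which no label names a build, and genes there were not analysed. Its median coverage was 129 reads in the pool (range 108 to 160) and 155.5 reads in pep1-1 (range 94 to 200). Its median frequency was 0.507 in the pool and 0.511 in pep1-1. Of the 146 shared sites between its ends, 140 were members. Its first member, G27811817A, was on 57 of 115 pool reads and 40 of 94 progenitor reads. Its middle member, T27815237C, was on 72 of 137 pool reads and 80 of 147 progenitor reads. Its last, T27817512C, was on 56 of 127 pool reads and 76 of 146 progenitor reads. Only 22.1% of its changes were C-to-T or G-to-A, and 54.3% were transitions.

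**Figure D3:**
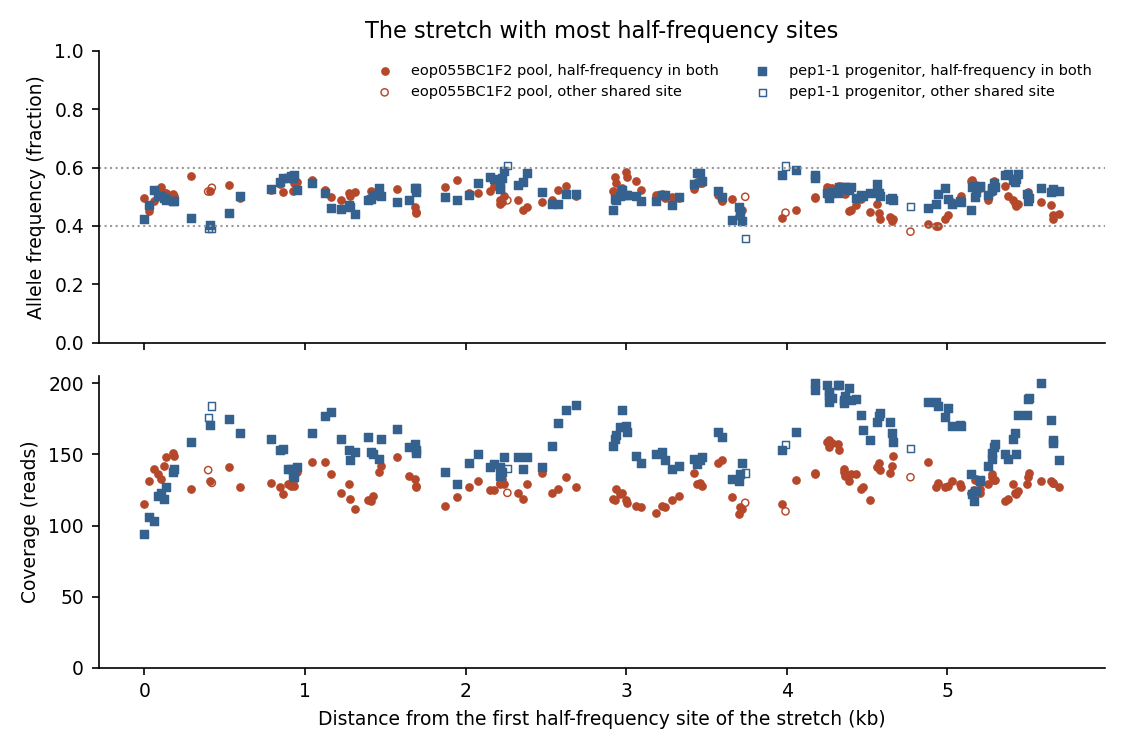
Allele frequency (top, fraction) and coverage (bottom, reads) of shared sites along the chromosome 5 stretch of 140 half-frequency sites, against distance in kb from its first such site, for the pool (circles) and the progenitor (squares). Open symbols are shared sites that are not half-frequency in both, and dotted lines mark 0.4 and 0.6; the pool coverage of the half-frequency sites stays between 108 and 160 reads.

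The second stretch, on chromosome 8 from 46087027 to 46089553, held 112 members in 2527 bp, or 44.3 per kb. Its median coverage was 127 reads in the pool and 151 in pep1-1, and its median frequency 0.486 in the pool and 0.467 in pep1-1. Members at its ends had low variant quality. T46087027G was on 51 of 122 pool reads and 62 of 142 progenitor reads, at qualities of 9.93 in the pool and 17.5 in pep1-1. A46089553G was on 51 of 108 pool reads and 60 of 140 progenitor reads, at qualities of 5.79 in the pool and 3.805 in pep1-1. T46088365C, in the middle, was on 60 of 124 pool reads and 84 of 161 progenitor reads, at qualities of 84.5 in the pool and 121 in pep1-1.

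The third stretch, on chromosome 2 from 7804339 to 7808660, held 103 members in 4322 bp. Its median coverage was 117 reads in the pool and 127 in pep1-1, and its median frequency 0.485 in the pool and 0.507 in pep1-1. It was less pure than the first, with 103 members among 141 shared sites. A7804339G was on 47 of 100 pool reads and 46 of 90 progenitor reads, T7806915C on 75 of 135 pool reads and 41 of 96 progenitor reads, and T7808660C on 49 of 117 pool reads and 47 of 109 progenitor reads.

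The next stretches in size were spread over 5 chromosomes. Chromosome 1 held 75 members from 16526665 to 16529325, with medians of 141 reads in the pool and 138 in pep1-1, and 63 from 7487185 to 7489715, with 138 in the pool and 122 in pep1-1. Chromosome 4 held 58 members from 14578711 to 14581214, with 124.5 reads in the pool and 127.5 in pep1-1, and 45 from 19201583 to 19203634, with 127 in the pool and 95 in pep1-1. On chromosome 6, 57 members ran from 16829431 to 16830746, with 121 reads in the pool and 158 in pep1-1. On chromosome 5, 50 members ran from 3877902 to 3879476, with 121 reads in the pool and 153.5 in pep1-1. On chromosome 2, 46 members ran from 14133328 to 14135475, with 121 reads in the pool and 138 in pep1-1. The 10 largest stretches together held 749 members, or 21.8% (20.5 to 23.2%). On the remaining chromosomes the largest stretches were smaller: 20 members on chromosome 3 from 21819976 to 21820509 and 41 on chromosome 7 from 11416872 to 11418561.

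Between the ends of the 169 stretches of 5 or more, members were most of what the libraries shared. They made up 2768 of 3337 shared sites, or 82.9% (81.6 to 84.2%). The other 569 sites were of a like depth, with a median of 125 reads in the pool and 123 in pep1-1. Their median frequency was 0.477 in the pool and 0.442 in pep1-1. Under 0.4 were 24.4% of them in the pool and 44.5% in pep1-1, and above 0.6 were 13.9% in the pool and 28.5% in pep1-1. No fixed site lay between the ends of these stretches, which spanned 143971 bp in all. Neighbouring fixed sites lay a median of 89111 bp apart, so few would fall in so short a length by chance. Their absence is not read as a result. Of the 770 fixed sites, 12 lay within 500 bp of any member. Whether that was more or fewer than chance would give was not tested.

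Members were of all substitution types, whereas fixed sites, most of which lay on chromosomes 2 and 8, were mostly of the mutagen type. C-to-T and G-to-A changes made up 29.5% of members (28.0 to 31.0%), against 81.9% of fixed sites (79.1 to 84.5%) and 33.2% of all shared sites within the coverage limits. They made up 25.4% (23.9 to 26.9%) of the 3123 shared sites within those limits that were neither. A low share of these changes was thus not particular to members. On chromosomes 2 and 8 these changes made up 31.2% of members (28.7 to 33.8%), against 91.2% of 600 fixed sites (88.6 to 93.2%). On the other chromosomes they made up 28.5% of members (26.6 to 30.4%), against 49.4% of 170 fixed sites (42.0 to 56.9%). The reverse changes, A-to-G and T-to-C, made up 31.1% of members (29.6 to 32.7%), against 6.23% of fixed sites (4.73 to 8.17%). G-to-T and C-to-A changes made up 9.96% of members (9.002 to 11.01%), against 2.73% of fixed sites (1.79 to 4.13%). They made up 26.2% (24.7 to 27.8%) of the 3123 shared sites in the coverage limits that were neither. There were 1.54 transitions per transversion among members (2082 and 1352 sites), against 7.46 among fixed sites (679 and 91 sites). Transitions made up 60.6% of members, 88.2% of fixed sites and 48.7% of the 3123 sites that were neither. No test was made, since members of a stretch are not independent.

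Among members, each transition was close in share to its counterpart on the other strand, with overlapping intervals. G-to-A made up 15.5% (14.3 to 16.7%) and C-to-T 14.04% (12.9 to 15.2%) of members, while T-to-C made up 16.3% and A-to-G 14.8%. G-to-T, at 5.74% (5.01 to 6.57%), exceeded C-to-A, at 4.22% (3.599 to 4.95%). Among fixed sites, C-to-T at 51.7% exceeded G-to-A at 30.3%. The mutagen-type share was similar in stretches of every size, from 27.6% of members in stretches of 20 or more to 33.1% in stretches of 10 to 19. Across the 79 stretches of 10 or more it ran from 13.2 to 63.6%, with a median of 30%. By chromosome, fixed sites were few outside chromosomes 2, 4, 7 and 8. The share was 26.8% of members against 30% of 10 fixed sites on chromosome 1, 28.8% against 33.3% of 6 on chromosome 3, and 24.6% against 30% of 20 on chromosome 6. On chromosome 5 it was 24.3% of members, and none of the 9 fixed sites was of that type.

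Every chromosome held members, but unevenly. Chromosome 2 held 841 in 105 stretches, chromosome 4 held 683 in 109, and together they held 44.4% (42.7 to 46.05%). Chromosome 8 held 441 members in 82 stretches, chromosome 1 held 385 in 39, chromosome 7 held 368 in 103 and chromosome 5 held 341 in 33. Chromosomes 6 and 3 held 236 and 139 members, in 39 and 38 stretches. Per Mb up to the last listed position, counts ran from 4.57 on chromosome 3 to 23.0 on chromosome 2. The share of shared sites within the coverage limits that were members ran from 35.5% on chromosome 3 to 61.7% on chromosome 5. The weight of the largest stretch differed: it held 140 of 341 members on chromosome 5, but 58 of 683 on chromosome 4 and 41 of 368 on chromosome 7.

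**Figure D4:**
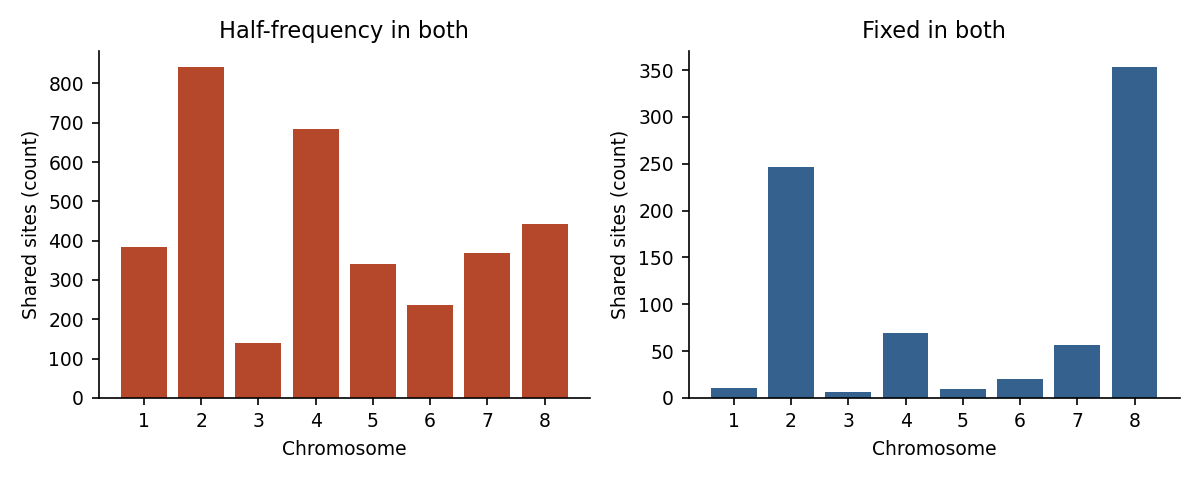
Number of half-frequency sites (left) and fixed sites (right) on each of the 8 chromosomes; the vertical scales differ. Half-frequency sites occur on all chromosomes, from 139 on chromosome 3 to 841 on chromosome 2, while 600 of the 770 fixed sites are on chromosomes 2 and 8.

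Fixed sites had another distribution, with 353 on chromosome 8, 247 on chromosome 2 and from 6 to 69 on each of the others. Along chromosome 2, members gathered between 10 and 15 Mb, which held 459 of its 841 members in 41 stretches, 13.4% of all members (12.3 to 14.5%). Shared sites as a whole gathered there too: the same 5 Mb held 804 of the 1677 on chromosome 2 within the coverage limits, or 47.9% (45.6 to 50.3%), against 54.6% of that chromosome's members. It held 36 of that chromosome's fixed sites. Median coverage of members ran from 119 to 133 reads in the pool and from 123 to 148 in pep1-1. It exceeded that of fixed sites on 8 of 8 chromosomes in both libraries, although the fixed median was as low as 29.5 reads in the pool and 30 in pep1-1 on chromosome 1, which held 10 fixed sites. The fixed median was also low on chromosome 6 (20 fixed sites), at 32.5 reads in the pool and 33.5 in pep1-1. On chromosome 3 (6 fixed sites) it was 42.5 and 51.5 reads, so the ratio differed between chromosomes. On chromosome 8, with the most fixed sites, median coverage was 126 reads at members against 63 at fixed sites in the pool, and 135 against 61 in pep1-1.

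On chromosome 8, where pool-only changes of the mutagen type had their highest median allele frequency in the pool, half-frequency sites stood near 0.5. For a pool frequency that was not itself limited, sites were chosen on the pep1-1 frequency, at 0.4 to 0.6. They also had to be listed in the pool with the same base and to lie within the coverage limits in both libraries. Sites unlisted in the pool could therefore not enter, and the shares below hold only for listed sites. Of 4095 such shared sites, 83.9% (82.7 to 85.0%) were also at 0.4 to 0.6 in the pool, 12.8% were lower and 3.37% higher. None reached 0.9 in the pool, which allows a share of up to 0.0733% when a limit of 3 counts is set on a count of 0 (Wilson upper limit 0.0937%). Both limits treat sites as independent, which sites close together are not, so they are too narrow. On chromosome 8 the 530 sites had a median pool frequency of 0.482 (interquartile range 0.443 to 0.530). On the other chromosomes the median ran from 0.447 on chromosome 3 to 0.488 on chromosome 5.

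Pool-only C-to-T and G-to-A sites of chromosome 8 stood higher in the pool. These were sites unlisted in pep1-1, of quality 25 or more and read 10 times or more. Away from members, the 215 on chromosome 8 had a median of 0.836, against 0.432 to 0.554 on the other chromosomes. With those beside members counted too, the pool-only median was the higher in 10 of 10 bins of 5 Mb along the chromosome, the smallest of which held 6 progenitor half-frequency sites. The gap was smallest in the 5 Mb at each end. From 0 to 5 Mb, 33 progenitor half-frequency sites had a median pool frequency of 0.425, where 32 pool-only sites had 0.595. From 45 to 50 Mb, the bin with the most, 148 had 0.478, where 15 had 0.709. Of the 137 members in that bin, 112 lay in the stretch from 46087027 to 46089553. From 20 to 25 Mb, 77 progenitor half-frequency sites had a median pool frequency of 0.482, where 22 pool-only sites had 0.838. From 30 to 35 Mb, 83 had 0.484, where 23 pool-only sites had 0.867. From 35 to 40 Mb, 20 had 0.439, where 22 had 0.897. None of the 530 reached 0.8 in the pool, which allows a share of up to 0.566% by the same limit of 3 counts (Wilson upper limit 0.720%). Sites close together are not independent, so these limits too are narrower than they should be.

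**Figure D5:**
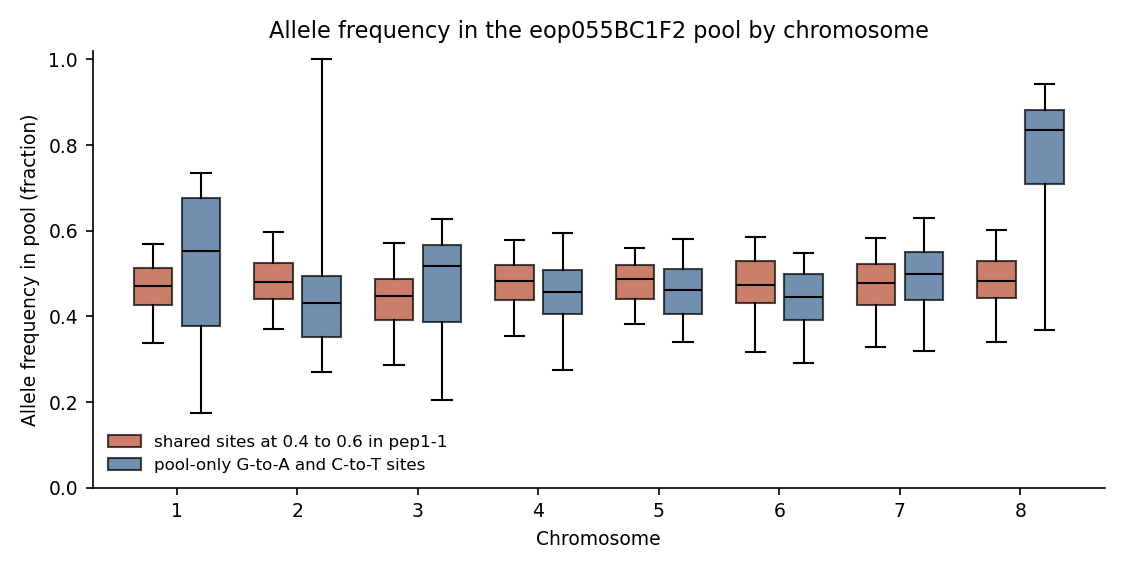
Allele frequency in the eop055BC1F2 pool by chromosome, for shared sites at 0.4 to 0.6 in pep1-1 (left box of each pair) and for pool-only C-to-T and G-to-A sites over 500 bp from a half-frequency site (right box). Boxes span the quartiles with the median as a line and whiskers the 5th to 95th percentiles; on chromosome 8 the medians are 0.482 and 0.836.

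Chosen on the pool frequency in the same way, 4365 shared sites at 0.4 to 0.6 had a median of 0.478 in pep1-1. Of these, 78.7% (77.4 to 79.9%) were at 0.4 to 0.6 there, 15.4% lower and 5.91% higher. Not every such site was listed in the other library. Of 4804 chromosome sites chosen on pep1-1 values, 85.9% were listed in the pool with the same base, and of 5777 chosen on the pool's values, 76.3% were listed in pep1-1. The unlisted ones had a median quality of 86.0 when chosen on the pool and 20.5 when chosen on the progenitor. Their median coverage was 77 reads when chosen on the pool and 93 reads when chosen on the progenitor. Why they were unlisted was not tested.

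Some sites listed in one library only lay beside members, and these were read more deeply than those farther away. Of 1339 pool-only C-to-T and G-to-A sites on chromosomes, 68, or 5.08% (4.03 to 6.39%), lay within 500 bp of a member. Those 68 had a median coverage of 118 reads and a median frequency of 0.430, against 66 reads and 0.493 at the 1271 farther away. On chromosome 8, the 8 pool-only sites beside members had a median of 0.451. Of 1114 pool-only sites with other changes, 158, or 14.2% (12.3 to 16.4%), lay within 500 bp of a member, at a median of 114 reads, against 41 reads farther away. Among progenitor-only sites, 63 of 235 C-to-T and G-to-A changes, or 26.8% (21.6 to 32.8%), lay that close, at a median of 105 reads, against 29.5 reads farther away. Of 912 progenitor-only sites with other changes, 124, or 13.6% (11.5 to 16.0%), did so, at a median of 94 reads, against 31 reads farther away. Median coverage at members was 126 reads in the pool and 129 in pep1-1, above each of these 4 medians.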

How the data were processed

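Genomic DNA libraries of the eop055BC1F2 pool and of pep1-1 were sequenced, 1 per group. The submitters' processing notes name Bowtie2, SAMtools and DESeq, with no version or role. For the genome build, the filters and the differing version labels of the 2 sheet names the sources used here give nothing. A difference in processing between the lists was not tested. The genotype in a sheet's name gave its sample.

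Allele frequency was deposited as a fraction. The deposited column headed quality held whole numbers and was read as the count of variant reads. The deposited column headed reads held decimals up to 225.009 and was read as a Phred-scaled quality score. Coverage was the count over the fraction, rounded, and gave back the listed fraction within 5e-05 at all 14923 pool and 14029 progenitor sites. Median coverage of all listed sites was 106 and 100 reads.

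Members and lists were chosen with earlier results of these data known. Named were the 10 largest stretches, each chromosome's largest, the ends and middles of the top 3, the 5 deepest members near 0.5 and sites at the frequency limits. Wilson intervals (95%) cover counting only, and those of medians use order statistics. Steps were tested on simulated data. Python 3.11.15, numpy 2.4.6, pandas 2.3.3, scipy 1.17.1 and matplotlib 3.10.9 were used. Alternatives changed the frequency and coverage limits, a quality minimum, the fixed threshold, distances and 1 member per stretch.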

Additional observations from a re-analysis of the deposited data

Results flagged for a closer look

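Outside the chromosomes, which the comparisons above do not use, 384 of 1296 shared sites on unplaced sequences, or 29.6% (27.2 to 32.2%), met the same limits of frequency and coverage. They lay on 73 sequences, and were read a median of 125 times in the pool and 117 times in pep1-1.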

How the results depend on the processing

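Of 80 values recomputed under alternatives, 52 stayed within the interval of the value reported, or within 1.5 times it for a count, and 28 moved. With limits of 0.45 to 0.55 there were 1375 members, 363 of them on chromosome 2, with 87.1% within 500 bp of another, 64.9% in stretches of 5 or more and 27.6% G-to-A or C-to-T. Progenitor half-frequency sites were then within the limits in the pool at 58.2%, and 3.14% of pool-only markers lay beside a member. With limits of 0.35 to 0.65 these shares were 94.9% within 500 bp, 83.4% in stretches and 91.2% within the limits in the pool. With a coverage maximum of 150 reads the progenitor depth ratio was 2.03, 92.2% lay within 500 bp, 74.9% in stretches, 82.0% were within the limits in the pool, and the chromosome 8 median was 0.474. With no coverage maximum the depth ratio was 1.80 in the pool and 1.86 in the progenitor. Taking the first member of each stretch, it was 1.94 and 1.95, with 31.8% G-to-A or C-to-T and 1.44 transitions per transversion. A quality minimum of 25 gave 85.7% within the limits in the pool. A distance of 100 bp gave 84.3% of members and 2.46% of pool-only markers, and 1000 bp gave 95.3% of members. Gaps of 100 and 1000 bp put 61.3% and 84.7% of members in stretches of 5 or more. Tested and adjusted within the coverage limits alone, 47 of 8299 shared sites, unplaced ones included, were called, against 313 of 9753. The cause was not tested. Depth limits a single frequency to about 0.0857 either way. No paired analysis was possible because there was 1 library of each genotype, and leaving out a replicate was not possible either.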

Other observations

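A few sites at 0.4 to 0.6 in the pool were fixed in pep1-1. There were 18 of 4365 (0.412%, 0.261 to 0.651%), chosen after their values were seen, and 17 of them fell into 2 blocks. On chromosome 3, 11 G-to-A sites lay from 29670139 to 30188249, over 0.518 Mb. Their median frequency was 0.518 in the pool (range 0.434 to 0.586) and 1 in pep1-1 (range 0.988 to 1). Their median coverage was 70 reads in the pool and 69 in pep1-1, so they had the depth of fixed sites and not of the half-frequency sites. They were 11 of the 13 shared sites in that block at 0.9 or more in pep1-1. The block on chromosome 7 held 6 G-to-A sites from 50007625 to 50425788. Their median frequency was 0.5 in the pool (range 0.429 to 0.509) and 1 in pep1-1. They had medians of 62.5 reads in the pool and 57 in pep1-1, and were all 6 such shared sites there. The remaining one was G18218856T on chromosome 7, at 0.411 in the pool and 1 in pep1-1.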
